A study of Mus musculus with 14 samples.

Results

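Blood and lymphatic endothelial genes were followed as a set of 33 genes in mouse jejunum. The set was chosen by name, from known markers, receptors and regulators of the cells that line vessels, and its rule uses no measured value, although earlier results of these data were known when it was drawn up. It held 27 genes of blood endothelium or of endothelium in general and 6 genes used to mark lymphatic endothelium. All 33 had exactly 1 probe set with a single gene symbol, and all 33 passed the filter on dim genes, so they stood among 18010 tested genes of 22180 named ones. The samples were whole jejunum of mice aged 19 to 21 weeks that had fed freely and were killed at 7 am, with 1 Affymetrix array for each mouse. In 7 mice LRH-1 carried the K289R substitution (K289R), in which an arginine replaces a lysine to which SUMO, a small protein tag, can be attached, and 7 mice had wild-type LRH-1 (WT). LRH-1 is a transcription factor of the nuclear receptor family found in gut epithelium, liver and pancreas. Its gene, Nr5a2, had a mean log2 intensity of 10.18 in K289R jejunum and 10.32 in WT jejunum (limma difference -0.14, adjusted p = 0.685). The labels call the arrays biological replicates and do not state strain, sex, litter or how the allele was made, and their number limits the precision of every value.

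Blood endothelial cells form the inner lining of vessels, and in the small intestine their capillaries lie close under the epithelium of each villus and carry absorbed sugars and amino acids away. These cells grow and survive through VEGF acting on KDR, are kept quiescent by angiopoietin acting on TEK, and hold together through VE-cadherin and its partners. Each villus also has a central lymphatic vessel, the lacteal, which takes up fat in chylomicrons and whose cells depend on the transcription factor PROX1 and on VEGF-C acting on FLT4. In RNA from whole tissue, fewer endothelial cells and less endothelial RNA per cell cannot be told apart.

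The arrays had median intensities of 168 to 174, and values were analysed as log2 intensities, 1 probe set for each gene. A log2 difference of 1 is a doubling of intensity, and differences are given as K289R minus WT. The mean log2 intensity of 10 enterocyte genes ranged from 13.22 to 13.43 in K289R jejunum and from 13.13 to 13.43 in WT jejunum. This mean is a check for enterocytes and does not place a piece along the small intestine. Fabp6, a bile acid binding protein of the distal small intestine, had a log2 intensity above 8 on 4 arrays. It was 10.71 and 9.91 on replicates 2 and 7 of K289R and 12.52 and 9.18 on replicates 1 and 6 of WT. On the other arrays it lay between 6.09 and 6.63.

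The most visible pattern was a step between arrays that ran through most of the genes at once. The mean log2 intensity of the 33 genes on the K289R arrays, replicates 1 to 7, was 8.01, 8.41, 8.28, 8.32, 7.99, 8.38 and 8.29. On the WT arrays, in the same order of replicates, it was 7.90, 8.41, 7.96, 7.96, 8.41, 8.34 and 8.001. These means fell into an upper set of 8 arrays, between 8.28 and 8.41, and a lower set of 6 arrays, between 7.90 and 8.01. The gap between the sets was 0.27, and the next largest gap between neighbouring arrays was 0.06. Both genotypes were in both sets: 5 of 7 K289R arrays and 3 of 7 WT arrays were in the upper set. On WT replicate 5, 32 of the 33 genes were above their WT mean, and on WT replicates 1 and 4 only 2 were. Among K289R arrays, 30 genes were above their K289R mean on replicate 2 and 2 on replicate 1. No label names what the arrays of a set shared.

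**Figure D1:**
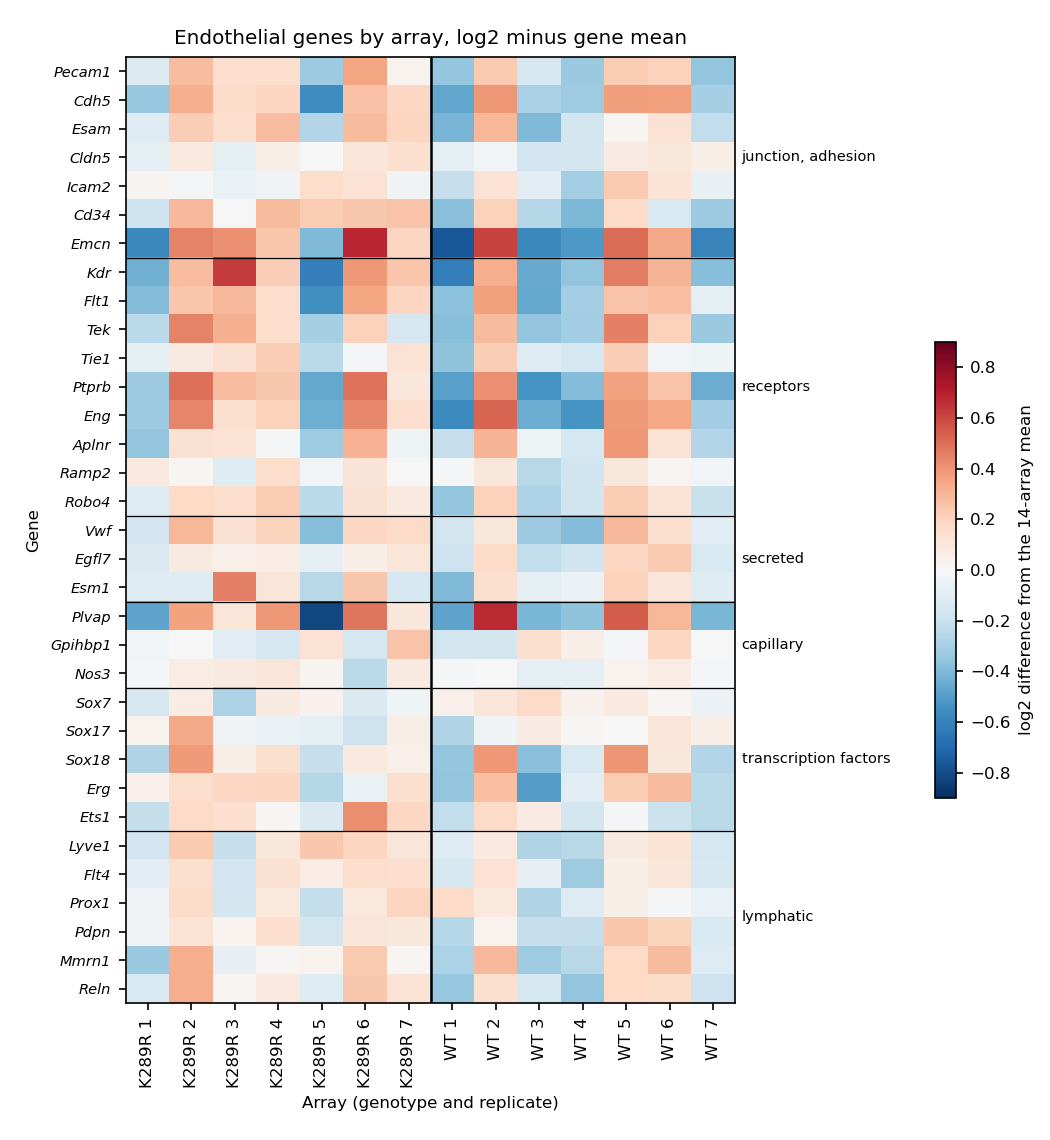
Log2 intensity of each of the 33 endothelial genes (rows, by role) on each array (columns, K289R left of WT), minus that gene's mean over the 14 arrays. Columns are pale to dark red through most rows on the 8 arrays of the upper set and blue on the 6 arrays of the lower set, K289R replicates 1 and 5 and WT replicates 1, 3, 4 and 7.

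Between genotypes, the differences of endothelial genes were mostly small and positive, and no gene passed the test. Of the 33 genes, 0 had an adjusted p under 0.05 in limma, where 8 of 18010 tested genes (0.0444%) did, 3 of them higher (0.0167%) and 5 lower (0.0278%) in K289R jejunum. The lowest adjusted p among them was 0.411, for Cd34. At an unadjusted p under 0.05, 1 of 33 genes passed, again Cd34, beside 1528 of all tested genes (8.48%). The difference was positive for 30 of the 33 genes, beside 8643 of all tested genes (48%). Its median was 0.09 over the 33 genes and -0.0039 over all tested genes. The 33 genes shared the step between arrays described above, so their 30 positive signs are not 30 separate observations. No gene had genotypes without overlap (0 of 33, beside 30 of all tested genes, 0.167%), and for 32 of 33 the 95% interval of the difference included 0.

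**Figure D2:**
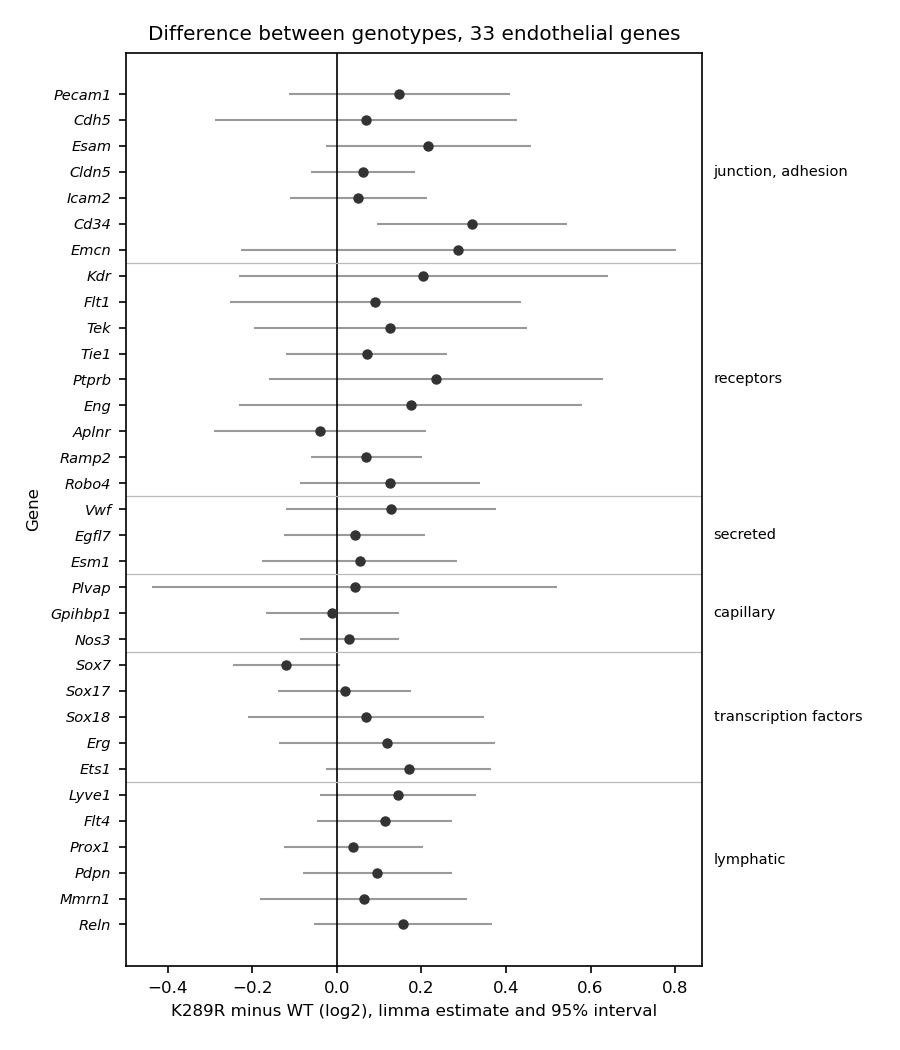
Difference in log2 intensity, K289R minus WT, for each of the 33 endothelial genes, with limma's 95% interval (7 arrays for each genotype). Points right of 0 are higher in K289R; 30 of 33 lie there, and the interval of Cd34 alone leaves out 0.

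Genes of cell junctions and of the endothelial surface were the role with the largest median difference, 0.15, and all 7 differences were positive. Cd34 encodes a sialomucin of capillary endothelium that fibroblasts and blood progenitors also carry. Its log2 intensity had a minimum, median and maximum of 8.57, 9.002 and 9.05 in K289R jejunum, against 8.36, 8.50 and 8.97 in WT jejunum. All 7 K289R arrays were above the WT median and 6 were above the WT mean, although the highest WT array lay within the K289R range. The means were 8.92 ± 0.18 in K289R jejunum and 8.60 ± 0.26 in WT jejunum (SD, n = 7 each). The difference was 0.32 (SE 0.11, 95% interval 0.10 to 0.55), or 1.25-fold, with an adjusted p of 0.411 in limma. Emcn, a mucin-like protein of venous and capillary endothelium, had values of 8.30, 9.13 and 9.57 in K289R jejunum, against 8.12, 8.36 and 9.49 in WT jejunum. The arrays of each genotype spread over more than 1 log2 unit, and the difference of 0.29 had an SE of 0.24. Pecam1, an adhesion molecule of all endothelium that leukocytes and platelets share, ranged from 8.58 to 9.26 (median 9.06) in K289R jejunum, against 8.55 to 9.14 (median 8.75) in WT jejunum. Cdh5, the gene of VE-cadherin and largely restricted to endothelium, ranged from 8.47 to 9.36 (median 9.22) in K289R jejunum, against 8.56 to 9.42 (median 8.74) in WT jejunum. Its difference was 0.07, smaller than the SE of 0.17, so the distance between the medians was not matched by the means. Esam, a junction adhesion molecule, differed by 0.22 (SE 0.11), and Cldn5, the main claudin of endothelial tight junctions, by 0.06 (SE 0.06). Icam2, an endothelial ligand of leukocyte integrins that lymphocytes also express, differed by 0.05 (SE 0.08). In all 7 the ranges of the genotypes overlapped.

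Receptors were positive in 8 of 9, with a median difference of 0.12. Kdr encodes VEGF receptor 2, the main signalling receptor for VEGF-A. Its values were 7.90, 8.77 and 9.15 in K289R jejunum, against 7.90, 8.17 and 8.99 in WT jejunum. The lowest arrays of the genotypes were level and the medians lay apart, and the difference was 0.20 with an SE of 0.21. Flt1, a VEGF receptor that mostly acts as a decoy, ranged from 7.64 to 8.55 (median 8.39) in K289R jejunum, against 7.73 to 8.57 (median 8.12) in WT jejunum. Tek, the angiopoietin receptor, ranged from 7.56 to 8.31 (median 8.02) in K289R jejunum, against 7.47 to 8.31 (median 7.54) in WT jejunum. Tie1, its co-receptor, differed by 0.07 (SE 0.09), less than its spread within either genotype. Ptprb encodes VE-PTP, a phosphatase that restrains TEK and VE-cadherin, and its values were 8.17, 8.87 and 9.12 in K289R jejunum, against 8.10, 8.24 and 9.04 in WT jejunum. Its difference of 0.23 (SE 0.19) was the largest among the receptors. Eng, the gene of endoglin, a co-receptor for BMP9 and TGF-beta, had values of 9.10, 9.69 and 9.98 in K289R jejunum, against 8.96, 9.23 and 10.06 in WT jejunum. The highest array for Eng was a WT array and the lowest was a WT array, so the WT range enclosed the K289R range. Robo4, a Roundabout family receptor that stabilises vessels, differed by 0.12, and Ramp2, the partner of the adrenomedullin receptor CALCRL, by 0.07. Aplnr, the apelin receptor, was the exception, with a difference of -0.04 (SE 0.12).

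Secreted and capillary genes had the smallest median differences, 0.05 over 3 genes and 0.03 over 3. Vwf, the clotting protein stored in endothelial granules, ranged from 7.72 to 8.40 (median 8.28) in K289R jejunum, against 7.71 to 8.40 (median 8.003) in WT jejunum, a difference of 0.13. Egfl7, a matrix protein released by endothelium, differed by 0.04, and Esm1, a proteoglycan of endothelial tip cells, by 0.05. Plvap forms the diaphragms of fenestrated capillaries, the type that lies under the intestinal epithelium. Its values were 8.89, 9.82 and 10.19 in K289R jejunum, against 9.23, 9.35 and 10.38 in WT jejunum, a difference of 0.04 with an SE of 0.23. The lowest single Plvap value, 8.89, was in K289R replicate 5 and the highest, 10.38, was in WT replicate 2. Gpihbp1 encodes the protein that holds lipoprotein lipase on capillaries, and it lay between 7.90 and 8.32 on K289R arrays, against 7.90 and 8.25 on WT arrays. Nos3, the endothelial nitric oxide synthase, lay between 7.48 and 7.83 on K289R arrays, against 7.63 and 7.79 on WT arrays. The ranges of the genotypes overlapped for both, and the differences were -0.01 for Gpihbp1 and 0.03 for Nos3.

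Among transcription factors, Sox7, Sox17 and Sox18 encode related proteins that overlap in vessel formation. Sox7 had values of 6.47, 6.72 and 6.84 in K289R jejunum, against 6.71, 6.81 and 6.93 in WT jejunum, the most negative difference of the set at -0.12 (SE 0.06, adjusted p = 0.604 in limma). Sox17 lay between 7.70 and 8.22 on K289R arrays, against 7.61 and 7.99 on WT arrays, and Sox18 between 7.17 and 7.82 on K289R arrays, against 7.06 and 7.84 on WT arrays, and the differences of 0.02 and 0.07 were below their SEs. Erg, an ETS family factor that maintains endothelial identity, differed by 0.12 (SE 0.12). Ets1, an ETS factor of endothelium and also of lymphocytes, had values of 8.15, 8.52 and 8.79 in K289R jejunum, against 8.12, 8.20 and 8.54 in WT jejunum, a difference of 0.17 (SE 0.09, adjusted p = 0.62).

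The 6 lymphatic genes were all positive, with a median difference of 0.10, and none passed the test. Lyve1, a hyaluronan receptor of lymphatic endothelium that some macrophages share, had values of 9.32, 9.63 and 9.77 in K289R jejunum, against 9.25, 9.41 and 9.65 in WT jejunum. The ranges overlapped, with the K289R median close to the WT maximum, and the difference was 0.14 (SE 0.09). Flt4, VEGF receptor 3, ranged from 7.99 to 8.32 (median 8.29) in K289R jejunum, against 7.83 to 8.29 (median 8.08) in WT jejunum. Reln, which lymphatic vessels secrete, ranged from 8.09 to 8.55 (median 8.31) in K289R jejunum, against 7.87 to 8.41 (median 8.07) in WT jejunum, a difference of 0.16 (SE 0.10). Mmrn1, a multimerin of lymphatic endothelium and platelets, had values of 8.35, 8.71 and 9.01 in K289R jejunum, against 8.36, 8.57 and 8.98 in WT jejunum, which overlapped almost fully. Prox1, the master regulator of lymphatic identity and also a gene of enteroendocrine cells, differed by 0.04 (SE 0.08). Pdpn, a mucin-type glycoprotein shared by lymphatic endothelium and fibroblasts, differed by 0.10 (SE 0.08).

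**Figure D3:**
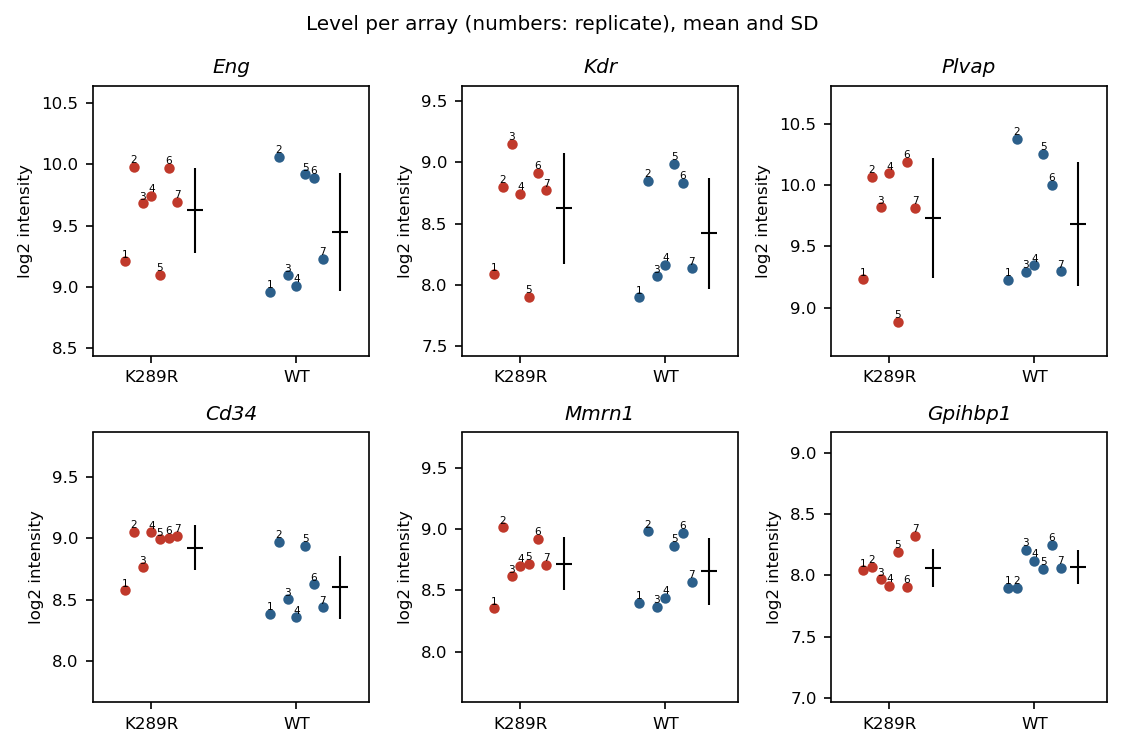
Log2 intensity on each array (points) with the genotype mean and SD for Eng, Kdr, Plvap, Cd34, Mmrn1 and Gpihbp1, K289R left of WT. Eng, Kdr and Plvap spread widely within both genotypes, Cd34 has most K289R points above most WT points, and Gpihbp1 stays between 7.90 and 8.32.

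Co-variation was then measured within genotype, as Pearson r over the 14 arrays after each genotype's mean had been taken off. The arrays share their tissue pieces, RNA and normalization across genes, and they fall into the 2 sets above, so these r values are descriptions without a p. Over the 528 pairs among the 33 genes the median r was 0.624, and 64.6% of pairs were above 0.5. Over all pairs of tested genes the median was -0.004, and 8.16% were above 0.5. Pairs among blood endothelial genes had a median r of 0.639, pairs among lymphatic genes 0.697, and pairs of a blood with a lymphatic gene 0.609. The median was 0.502 within K289R arrays and 0.826 within WT arrays. The step between the sets of arrays enters these values, and co-variation apart from it could not be tested, since the sets were read from the mean of the same genes.

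Each gene was next set against the mean of the other 32. For 17 genes r was above 0.9, for 12 it lay between 0.4 and 0.9, and for 4 it was below 0.3. Eng followed the others most closely (r = 0.991), then Cdh5 (0.984), Ptprb (0.98), Emcn (0.974), Robo4 (0.969) and Plvap (0.965). The SD within genotype was 0.53 for Emcn, 0.50 for Plvap, 0.42 for Eng, 0.41 for Ptprb, 0.37 for Cdh5 and 0.21 for Robo4. Of the whole set, 17 of the 33 genes were above the 90th percentile of SD over tested genes. The 4 genes that did not follow the rest were Sox17 (r = 0.241), Nos3 (0.229), Sox7 (0.066) and Gpihbp1 (-0.187). Within a genotype their SD was 0.15 for Sox17, 0.10 for Nos3, 0.11 for Sox7 and 0.15 for Gpihbp1. Icam2 had r = -0.42 within K289R arrays and 0.918 within WT arrays, and Nos3 had -0.078 within K289R arrays and 0.765 within WT arrays. These are r values over 7 arrays each, and their differences were not tested.

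**Figure D4:**
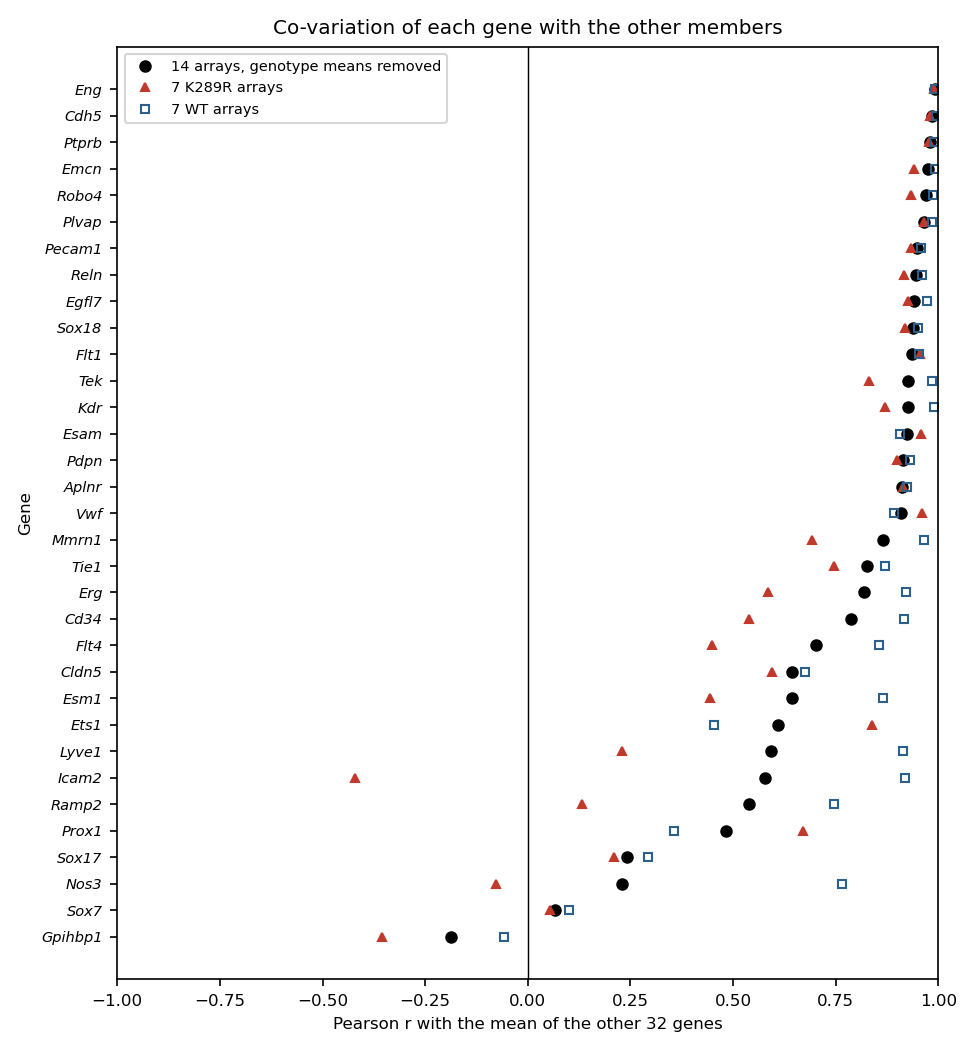
Pearson r of each endothelial gene with the mean of the other 32 genes, over 14 arrays with the genotype mean removed and within the 7 K289R and the 7 WT arrays. Most genes lie close to 1, from 0.991 for Eng, and Sox17, Nos3, Sox7 and Gpihbp1 lie below 0.3.

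Lymphatic genes departed from blood endothelial genes on some arrays. The mean of the 27 blood genes and that of the 6 lymphatic genes had r = 0.866 over 14 arrays, 0.706 within K289R arrays and 0.956 within WT arrays. On K289R replicate 3 the blood mean was 0.08 above its K289R mean and the lymphatic mean 0.15 below. On K289R replicate 5 the blood mean was 0.29 below and the lymphatic mean 0.07 below. The mean of 13 smooth muscle genes was 0.28 below its K289R mean on replicate 3 and 0.21 above it on replicate 5. With that smooth muscle mean the 6 lymphatic genes had r of 0.729 (Lyve1), 0.581 (Flt4), 0.455 (Mmrn1), 0.243 (Reln), 0.149 (Prox1) and 0.113 (Pdpn). The 27 blood genes ranged from -0.393 (Esm1) to 0.731 (Sox7), so the ranges overlapped. The part of muscle content in these departures was not tested.

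Known pairs of genes were read in the same way, with no p because the step between arrays enters every r. Pecam1 with Cdh5, junction genes of the same cells, had r = 0.959 over 14 arrays, 0.938 within K289R arrays and 0.974 within WT arrays. Kdr with Flt1, the receptors for VEGF-A, had 0.955 over 14 arrays, 0.973 within K289R arrays and 0.936 within WT arrays. Lyve1 with Flt4, both lymphatic, had 0.864 over 14 arrays, 0.892 within K289R arrays and 0.858 within WT arrays. Without the 2 arrays farthest from the median of the gene named first, these were 0.949, 0.925 and 0.796. Arrays of both sets were still among those kept, so the step enters these values too and co-variation apart from it is not shown. Pecam1 with Lyve1, a blood and a lymphatic marker, had 0.492 over 14 arrays, 0.097 within K289R arrays and 0.865 within WT arrays. Sox17 with Sox18 had 0.314 over 14 arrays and -0.169 without the 2 farthest. Gpihbp1 with Lpl, the lipase it anchors, had -0.008 over 14 arrays and 0.446 without the 2 farthest, so the r values of these last pairs depended on few arrays.

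Promoters were read for genes that moved together, from RefSeq windows of 250 bases before the start in assembly GRCm38.p6. The table held 17 of the 33 genes, in 22 windows. Shown are, among the genes with 1 window, the 4 with the highest r to the other endothelial genes and the 1 with the lowest, Esm1 (r = 0.643). ETS factors such as ERG bind a GGAA core, and matches to the 6-letter forms CCGGAA and CAGGAA are in capitals, read on either strand, so that TTCCGG and TTCCTG are capitalised too. The windows are chr2:32646345-32646594 (+) for Eng, chr3:137340828-137341077 (+) for Emcn, chr9:37401722-37401971 (+) for Robo4, chr5:22344706-22344955 (-) for Reln and chr13:113209409-113209658 (+) for Esm1, each printed 5′ to 3′ on the gene's strand.
Eng: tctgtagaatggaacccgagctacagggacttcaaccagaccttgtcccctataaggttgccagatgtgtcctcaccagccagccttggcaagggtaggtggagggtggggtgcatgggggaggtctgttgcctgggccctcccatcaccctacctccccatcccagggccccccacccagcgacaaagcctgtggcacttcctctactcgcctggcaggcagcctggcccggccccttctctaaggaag
Emcn: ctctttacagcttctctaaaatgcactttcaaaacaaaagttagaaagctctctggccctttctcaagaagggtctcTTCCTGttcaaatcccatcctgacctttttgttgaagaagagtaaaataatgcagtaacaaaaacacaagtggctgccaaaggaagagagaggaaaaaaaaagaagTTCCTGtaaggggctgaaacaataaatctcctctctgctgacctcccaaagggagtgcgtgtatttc
Robo4: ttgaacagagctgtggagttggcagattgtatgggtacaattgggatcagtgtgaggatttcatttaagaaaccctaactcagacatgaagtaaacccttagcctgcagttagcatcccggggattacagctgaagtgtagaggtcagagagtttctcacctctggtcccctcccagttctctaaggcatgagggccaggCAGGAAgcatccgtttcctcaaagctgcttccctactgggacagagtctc
Reln: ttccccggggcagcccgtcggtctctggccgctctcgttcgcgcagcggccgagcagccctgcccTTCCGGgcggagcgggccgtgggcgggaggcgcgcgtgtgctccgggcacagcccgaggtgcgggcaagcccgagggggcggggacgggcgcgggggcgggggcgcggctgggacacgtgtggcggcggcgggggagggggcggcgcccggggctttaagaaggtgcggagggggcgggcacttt
Esm1: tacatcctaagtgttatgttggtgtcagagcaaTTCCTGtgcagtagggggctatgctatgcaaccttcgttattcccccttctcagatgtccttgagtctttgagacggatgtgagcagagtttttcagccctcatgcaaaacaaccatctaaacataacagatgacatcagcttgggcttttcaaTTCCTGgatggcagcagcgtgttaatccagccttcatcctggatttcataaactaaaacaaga

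Emcn and Esm1 had 2 matches each, Robo4 and Reln 1 each and Eng 0. Either form was found in 12 of 22 windows of endothelial genes (54.5%) and in 35.1% of 32851 windows of all genes. CAGGAA alone was in 10 of 22 windows (45.5%) against 25.7% of all, and CCGGAA in 2 of 22 (9.09%) against 12.03% of all. On both strands ACAAT, a core of SOX sites, was in 31.8% against 27.7%, and AGATAA, a core bound by zinc finger factors of blood and endothelium, in 4.55% against 9.99%. CAAGGNCA, a form of the LRH-1 site, was in 2 of 22 windows, those of Esm1 and Tie1 (9.09% against 5.53%). Genes with and without matches to these forms were both among those that followed the set closely, Emcn with 2 and Eng with 0. The Eng window does hold the GGAA core with other flanking letters, which were not counted, so 0 matches is not absence of the core. A match is a description of the letters, not a site shown to be bound.

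Other tissue components were set beside the endothelial mean as the mean log2 intensity of listed marker genes. The mean of 24 further endothelial genes, such as Acvrl1 and Cav1, had r = 0.977 with the mean of the 33. Macrophage and dendritic genes (11 genes) had r = 0.897, fibroblast and matrix genes (14) 0.878 and pericyte genes (9) 0.821. Within K289R arrays these were 0.823, 0.686 and 0.585, and within WT arrays 0.944, 0.987 and 0.992. The pericyte list includes Mcam and Pdgfb, which endothelium also expresses, so its r is not with pericyte signal alone. Smooth muscle genes had 0.127, T cell genes -0.11, B cell genes -0.037, adipocyte genes -0.445 and enterocyte genes -0.335. Mesothelial genes, which mark the outer surface of the gut, had -0.642. Without the 2 arrays farthest from the median of the list's mean, macrophage genes had 0.874, fibroblast genes 0.846 and pericyte genes 0.759. Smooth muscle genes then had 0.574, without K289R replicates 3 and 5, and enterocyte genes -0.752, without K289R replicate 5 and WT replicate 1, so these r values rested on single arrays. Across these arrays the endothelial mean moved with the list means of fibroblast, pericyte and macrophage genes. Pairs with the single fibroblast gene Dcn had lower r over 14 arrays, 0.293 for Pecam1, 0.218 for Pdpn and 0.64 for Cd34. Within K289R arrays these were -0.058, -0.239 and 0.696, and within WT arrays 0.818, 0.698 and 0.704. Without the 2 arrays farthest from the median of the endothelial gene they were 0.717, 0.556 and 0.444, so they depended on few arrays.

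**Figure D5:**
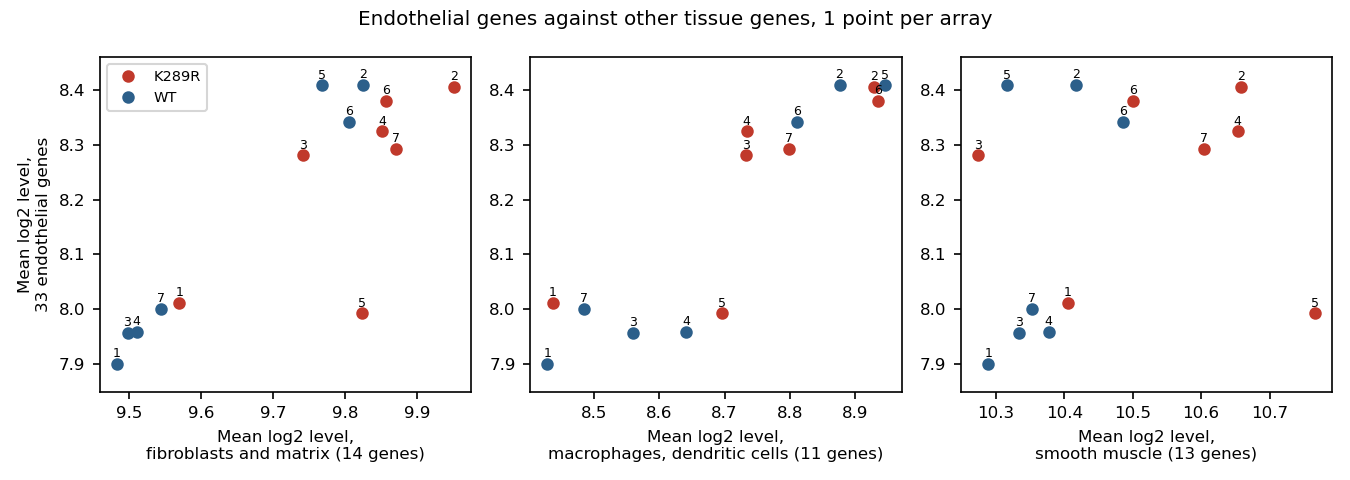
Mean log2 intensity of the 33 endothelial genes (vertical axes) against the mean log2 intensity of fibroblast and matrix, macrophage and dendritic, and smooth muscle genes (horizontal axes), 1 point for each array. The endothelial mean has r of 0.878 with fibroblast and 0.897 with macrophage genes within genotype, K289R replicate 5 lies apart at a fibroblast mean of 9.82, and smooth muscle has r of 0.127 (0.574 without K289R replicates 3 and 5).

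Differences of fibroblast and smooth muscle genes between genotypes were also mostly positive. The fibroblast and matrix mean ranged from 9.57 to 9.95 on K289R arrays, against 9.48 to 9.82 on WT arrays. Of the 14 fibroblast genes 13 were positive, with a median difference of 0.19. In limma 5 of the 14 had an unadjusted p under 0.05, beside 8.48% of all tested genes, and 0 passed the adjusted test. The smooth muscle mean ranged from 10.27 to 10.77 on K289R arrays, against 10.29 to 10.49 on WT arrays, and 11 of 13 genes were positive with a median of 0.23. Of these 13, 8 had an unadjusted p under 0.05 (8.48% of all tested genes) and 2 had genotypes without overlap (0.167% of all). The adjusted test passed 0 of them. With the fibroblast mean as a covariate in limma, 2 of 33 endothelial genes were higher in K289R and 31 lower. Their median difference was -0.08, beside -0.0032 over all tested genes. In that fit 8 of the 33 genes had an unadjusted p under 0.05. The share of all tested genes at that level was not counted, so the 8 are not read as a result. The lowest p was for Mmrn1 (-0.23, adjusted p = 0.397 in limma), with Plvap at -0.44 and Cdh5 at -0.30. The adjusted test passed 0 of the 33, beside 4 of all tested genes. K289R replicate 5 had a fibroblast mean of 9.82 with an endothelial mean of 7.99. Without it, in a fit added after seeing the data, 4 of 33 genes were higher and 29 lower, and the median was -0.045. With smooth muscle as the covariate 22 of 33 were higher, and Sox7 differed by -0.23 (adjusted p = 0.156). Without the 4 arrays with Fabp6 above 8, 25 of 33 were higher, and the median over all tested genes was -0.0044. In that fit 0 of the 33 had an unadjusted p under 0.05, and the share of all tested genes was not counted.

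For Cd34, the gene with the lowest p, r was 0.933 with the pericyte mean and 0.902 with the fibroblast mean. With the other endothelial genes it was 0.788. A high r with the fibroblast mean was not particular to Cd34. It was 0.964 for Mmrn1, 0.897 for Egfl7 and 0.89 for Reln, but 0.339 for Sox7 and 0.055 for Gpihbp1. In limma the Cd34 difference of 0.32 was 0.07 with the fibroblast mean as a covariate (unadjusted p = 0.326). With the smooth muscle mean it was 0.17 (unadjusted p = 0.191). Without the 4 arrays with Fabp6 above 8 it was 0.235 (unadjusted p = 0.101). Leaving out 1 array gave 0.28 to 0.38. The share of fibroblast or pericyte signal in Cd34 and Mmrn1 was not tested. Prox1 had r = -0.881 with the enterocyte mean, 0.717 with the mean of a list of 4 ileal genes and 0.483 with the other endothelial genes. With Chga, an enteroendocrine granule gene, it had -0.733, but with the mean of 10 enteroendocrine genes that include Chga it had -0.12.

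Ligands, partners and regulators that act on endothelium were read from 7 lists, 101 further tested genes in all. In limma 0 of 101 passed the adjusted test in either direction, and 13 were higher and 1 lower at an unadjusted p under 0.05, beside 4.43% and 4.05% of all tested genes. The difference was positive for 67 of 101, with a median of 0.04. Among 18 VEGF, angiopoietin, apelin and Slit pathway genes, Nrp2, a co-receptor for VEGF-C, differed by 0.28 (SE 0.08, unadjusted p = 0.00284, adjusted p = 0.336). Slit2, a Roundabout ligand, differed by 0.19 and Vegfd, a ligand of FLT4, by 0.18. Among 13 Notch, ephrin and arteriovenous genes, 6 were positive and Dll4, the Notch ligand of tip and arterial cells, differed by -0.14 (adjusted p = 0.532). Of 17 further vascular transcription factors 9 were positive, and the ETS factor Elk3, with the lowest p, differed by 0.19. Of the 24 other endothelial genes 19 were positive, and those with the lowest p were Arhgap29, a RhoA regulator, at 0.22, and Cav1, the caveolar coat gene, at 0.27. Leukocyte adhesion genes were positive in 6 of 8, with Icam1 at 0.16. Genes of a further lymphatic list were positive in 10 of 12, with Itga9, an integrin of lymphatic valves, at 0.20. Clca1 of that list (0.08) had a mean log2 intensity of 12.92 in WT jejunum, near the enterocyte mean of 13.33 there. It counts among the 10 and among the 67 of 101, and which cells gave its signal was not tested. These counts are therefore not read as lymphatic or endothelial signal alone. Genes of the pericyte list, most of which mark the cells wrapped around capillaries, were positive in 7 of 9 with a median of 0.18. Rgs5 differed by 0.20 and Kcnj8 by 0.23, and 4 had an unadjusted p under 0.05 in limma. Mcam (0.19) and Pdgfb (-0.0069) of this list are also expressed by endothelium.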

How the data were processed

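RNA was measured in jejunum of 14 mice on Affymetrix arrays. The deposited table gives the authors' intensity for each of 41345 probe sets on a linear scale (7.40 to 20050.3). Affymetrix Expression Console was used, per the submitters' processing notes. Version, background correction, normalization and genome build were not given in the sources used here. Medians per array were nearly equal, so values were log2-transformed without further scaling, and any difference in total RNA between arrays is not visible in them. Background left in an intensity pulls differences of dim genes towards 0.

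Names came from the platform annotation, which gave 1 symbol to 23521 probe sets and none here to 16010; the 1814 with several symbols were not used. A gene was its probe set with the highest mean, and genes whose mean lay under the 25th percentile over probe sets (log2 6.25, intensity 75.9) were not tested. Genotypes were taken from the titles. K289R minus WT was tested 2-sided by lmFit and eBayes of limma 3.58.1 (R 4.3.3) with no covariate, with Benjamini-Hochberg adjustment over 18010 genes and a threshold of 0.05. Correlations used numpy 2.4.6 and scipy 1.17.1 in Python 3.11.15. The steps were tested on simulated data. The endothelial genes and all lists were chosen with earlier results of these data known.

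Named genes are all 33 endothelial genes, Nr5a2, up to 3 genes with the smallest p of each list, the 10 further genes whose levels ran most alike to the endothelial mean, and the genes of the tested pairs. Itga9 and Kcnj8 fall under the list rule. Fabp6, Acvrl1, Clca1, Pdgfb and the genes most opposite to the endothelial mean were named outside it. Promoter windows and chromosomes came from RefSeq tables of GRCm38.p6. The closest arrays, WT replicates 3 and 4, still differed by a root mean square of 0.16 log2, so none was counted as a duplicate.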

Additional observations from a re-analysis of the deposited data

Results flagged for a closer look

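Every endothelial gene was examined in both genotypes for an array that stood apart from the other 6, which gave 66 groups of 7 arrays. In 2 of them the extreme array's gap to its neighbour, as a share of the range, was above Dixon's critical value of 0.568, and chance alone flags about 5% of groups. Nos3, the endothelial nitric oxide synthase, was lowest on K289R replicate 6 with a log2 intensity of 7.48, the next K289R array being at 7.70 (gap 0.63 of the range). Sox17, an arterial transcription factor, was lowest on WT replicate 1 at 7.61, the next WT array being at 7.84 (gap 0.62 of the range). WT replicate 1 also had the highest Fabp6 level of all arrays, and the part of this in the Sox17 value was not tested.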

How the results depend on the processing

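No endothelial gene passed the adjusted threshold under any of 28 alternative limma fits; the lowest adjusted p in each fit lay between 0.156 and 0.704. The median difference of 0.09 ranged from 0.045 to 0.144 when 1 array was left out and turned to -0.083 with the fibroblast mean as a covariate (-0.045 with K289R replicate 5 also left out, chosen after seeing the data). In the first of these fits 28 genes turned: Pecam1 -0.10, Cdh5 -0.30, Esam -0.019, Cldn5 -0.035, Icam2 -0.073, Emcn -0.29, Kdr -0.20, Flt1 -0.24, Tek -0.19, Tie1 -0.074, Ptprb -0.18, Eng -0.28, Ramp2 -0.0010, Robo4 -0.083, Vwf -0.10, Egfl7 -0.13, Esm1 -0.053, Plvap -0.44, Nos3 -0.0089, Sox17 -0.033, Sox18 -0.24, Erg -0.10, Lyve1 -0.048, Flt4 -0.045, Prox1 -0.047, Pdpn -0.065, Mmrn1 -0.23 and Reln -0.073. With smooth muscle as the covariate these turned: Cldn5 -0.0055, Icam2 -0.0046, Egfl7 -0.0080, Sox17 -0.035, Sox18 -0.010, Lyve1 -0.041, Flt4 -0.012 and Mmrn1 -0.097. Without the 4 arrays with Fabp6 above 8 these turned: Cdh5 -0.027, Tie1 -0.021, Plvap -0.070, Sox17 -0.084 and Sox18 -0.039. Leaving out 1 array gave ranges on both sides of 0 for Cdh5 (-0.0036 to 0.17), Aplnr (-0.096 to 0.022), Esm1 (-0.018 to 0.10), Plvap (-0.034 to 0.183), Gpihbp1 (-0.055 to 0.019), Sox17 (-0.036 to 0.051) and Prox1 (-0.0039 to 0.077). The causes were not tested. Of 886 differences under alternatives 823 kept their direction. Some of these could not turn, since the filter settings, the trend and robust setting and the replicate block leave the estimate unchanged. The mean over probe sets does so too, since each endothelial gene had a single probe set. The count is therefore no measure of stability.

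The median r among endothelial genes, 0.624, was 0.826 in WT arrays only, 0.502 in K289R arrays only, 0.696 with the smooth muscle mean taken off and 0.723 with a filter at the median, which left 28 genes. It ranged from 0.586 to 0.691 when 1 array was left out. With the fibroblast mean taken off, an alternative chosen after seeing the data, it was 0.243. The planned permutation test over all 14 arrays passed 9 of 22 pairs after adjustment, but the arrays fall into 2 sets, so that count is not read as a result.

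Replicate numbers are shared by the genotypes, and same-numbered arrays deviated together above r = 0.1 in 1 of 7 pairs. No K289R array correlated best with the WT array of its own number, although for number 3 r was 0.169 against 0.181 for the best other. The labels do not say what same-numbered mice shared, and these values cannot show it, so the main fit used no pairing. With the replicate block 0 endothelial genes passed and 0 of all genes, against 8 of all genes without it, and the median difference was 0.09. Calls over all genes, 8 here, numbered 14 with array weights, 4 with the fibroblast covariate, 16 with the T cell covariate, 5 without the 4 Fabp6 arrays and 4 to 14 with 1 array left out. Dim genes are limited by background in their intensity.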

Other observations

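Of the genes outside the set, the 10 that ran most alike to the mean of the 33 endothelial genes, by Pearson r over 14 arrays with the genotype mean removed, were Plpp3 (0.983), Npnt (0.981), Lamc1 (0.979), Bgn (0.974), Il1r1 (0.974), Lamb1 (0.974), Tnc (0.972), Tcf4 (0.971), Mmp2 (0.97) and F2r (0.97). Lamc1 and Lamb1 encode laminin chains of basement membranes, Npnt a matrix ligand of integrins, Tnc and Bgn matrix proteins, Mmp2 a gelatinase, Plpp3 a lipid phosphatase, Il1r1 the interleukin-1 receptor, Tcf4 a transcription factor and F2r the thrombin receptor. Within K289R arrays the r of these 10 with the endothelial mean was at least 0.953 (Bgn). The most opposite genes were Myo5b (-0.955), a motor of apical recycling in enterocytes, Epb41l4b (-0.921) and Ap2a2 (-0.909), a subunit of the clathrin adaptor. Of 17977 genes outside the set, 118 had r above 0.9, and the median r was -0.033. These r values share the step between the 2 sets of arrays and carry no p.

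Gpihbp1, the gene farthest from the rest of the set, had r = 0.66 with Slc4a1, the red cell anion exchanger, and 0.639 with the mean of 5 pancreatic acinar genes. Nos3 had r = 0.721 with Slc4a1. With Adipoq, an adipocyte gene, Gpihbp1 had 0.198. These are values over 14 arrays. Among tested genes the SD within genotype was at percentile 64.0 for Gpihbp1 and 21.3 for Nos3, so Nos3 had the narrower range.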
